A study of Homo sapiens with 8 samples.

Results

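The genes of glycolysis, lactate handling and the pentose phosphate pathway were followed step by step through mRNA and ribosome occupancy in cells carrying wild-type or mutant DNMT3A. The group was a fixed list of 34 genes, found by symbol among the 20453 Ensembl gene IDs of the count files, and every one of the 34 was present. After a filter on low counts 33 were tested in mRNA and 30 in ribosome footprints. SLC16A3, PDK3 and PGAM1 were too low in footprints, and TIGAR was too low in both.

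The cells were labelled THP-1, a line established from acute monocytic leukaemia, and had been transduced with DNMT3A or with DNMT3A R882H, a recurrent leukaemia mutation of this de novo DNA methyltransferase. Each genotype had 2 RNA-seq libraries and 2 ribosome profiling libraries (8 in 4 groups). Ribosome profiling sequences footprints, the pieces of mRNA that translating ribosomes shield from nuclease. Both genotypes keep the cell's own DNMT3A, gene counts do not separate it from the introduced copy, and no untransduced cells were among the libraries. The labels give neither the vector nor whether a line was 1 clone, and leave unsaid whether replicates were separate cultures.

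Total counts lay between 3415999 and 4523475 in the mRNA libraries and between 603360 and 1988513 in the footprint libraries, where the mutant ones were shallower. Levels are given in CPM, counts scaled to a common library total with TMM factors within each assay. On this scale the floor, which 3 counts set and which covers counting error only, was 0.673 to 0.887 CPM in mRNA and 1.55 to 4.92 CPM in footprints. The replicates of a group were very alike. In footprints the 2 libraries of a genotype differed by no more than counting noise (chi-square per degree of freedom 0.991, p = 0.732 in wild type and 0.928, p = 1 in mutant), while the mRNA pairs did differ (1.08 and 1.31). The p-values below therefore measure the spread between nearly identical libraries, which may be technical, and calls under an assumed biological coefficient of variation of 10% are given at the end. DNMT3A mRNA itself stood at 291 and 294 CPM in wild-type and 241 and 244 CPM in mutant libraries. Its footprints were 138 and 154 CPM in wild-type and 144 and 149 CPM in mutant libraries, with overlapping groups.

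Markers went against the cell label. Of 14 monocyte markers 3 (LYZ, CD68 and SPI1) reached 10 CPM in each mRNA library, and 8, among them S100A8, S100A9, CSF1R and MPO, had no mRNA count in any library. All 12 erythroid and megakaryocyte markers reached 10 CPM. Their summed level was 2469 to 2479 CPM in wild-type and 2050 to 2103 CPM in mutant mRNA. Epithelial markers (4 of 5 at 10 CPM or more) summed to 1166 to 1203 CPM and 913 to 917 CPM. Their part in the differences below was not tested, and fewer cells of a type cannot be told apart from less RNA per cell in bulk libraries.

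Glycolysis takes up glucose through carriers of the SLC2A family, traps and splits it, and ends in pyruvate, with ATP made in its later steps. Lactate dehydrogenase turns pyruvate into lactate and back, and SLC16A carriers move lactate across the membrane. Pyruvate dehydrogenase kinases hold pyruvate out of the mitochondrial citric acid cycle. The pentose phosphate pathway branches off after the first phosphorylation and supplies NADPH and ribose. Proliferating leukaemia cells commonly run these routes at high rates, and several of the genes are known targets of the hypoxia factor HIF-1.

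In mutant cells 12 of the genes, most of them glycolytic enzymes, fell by small amounts in both mRNA and footprints. The 4 genes called higher were called in 1 assay each: LDHB in mRNA, and LDHA, SLC16A1 and PDK1 in footprints. For none of them was the difference between the assays itself called. In mRNA 12 of 33 genes fell, 1 rose and 20 were not called (edgeR quasi-likelihood test, Benjamini-Hochberg adjusted p under 0.05). Over all 10756 genes tested 37.7% were called, 18.9% higher and 18.9% lower, so the pathway's total of 13 calls (39.4%) was near the background and its direction was not. In footprints 13 of 30 fell, 3 rose and 14 were not called, where 21.2% of all 9181 genes were called, 10.3% higher and 10.9% lower. The called changes were small, with a median size of 1.19-fold in mRNA (largest 1.41-fold) and 1.23-fold in footprints (largest 1.62-fold).

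Abundant genes are called more often, and many of these enzymes are abundant. Where the mean count reached 100, 49.1% of genes were called in mRNA, 25.4% lower and 23.6% higher, against 12 lower and 1 higher of 29 pathway genes. In footprints 37.1% were called at that count, 22% lower and 15% higher, against 12 and 2 of 21. The median log2 fold change of the pathway was -0.08 in mRNA and -0.22 in footprints, beside 0 and 0.01 over all genes tested.

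Of the 30 genes tested in both assays, 12 were called lower in both and none was called higher in both or in opposite directions. LDHB was called higher in mRNA only, and SLC16A1, LDHA and PDK1 in footprints only. RPIA was called lower in footprints only, and 13 genes were called in neither assay. Across these genes the log2 fold changes of the separate mRNA and footprint libraries had a Pearson r of 0.58 (n = 30 genes, which are not independent replicates). As a share of all counts the 34 genes took 1.47% and 1.48% in wild-type and 1.32% and 1.33% in mutant mRNA. In footprints they took 1.61% and 1.59% against 1.51% and 1.49%. The genotypes did not overlap, but 2 against 2 libraries are too few to test this, and no other gene set was set beside it. In mRNA the largest counts were those of GAPDH, ENO1 and ALDOA, so the share leans on these genes.

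**Figure D1:**
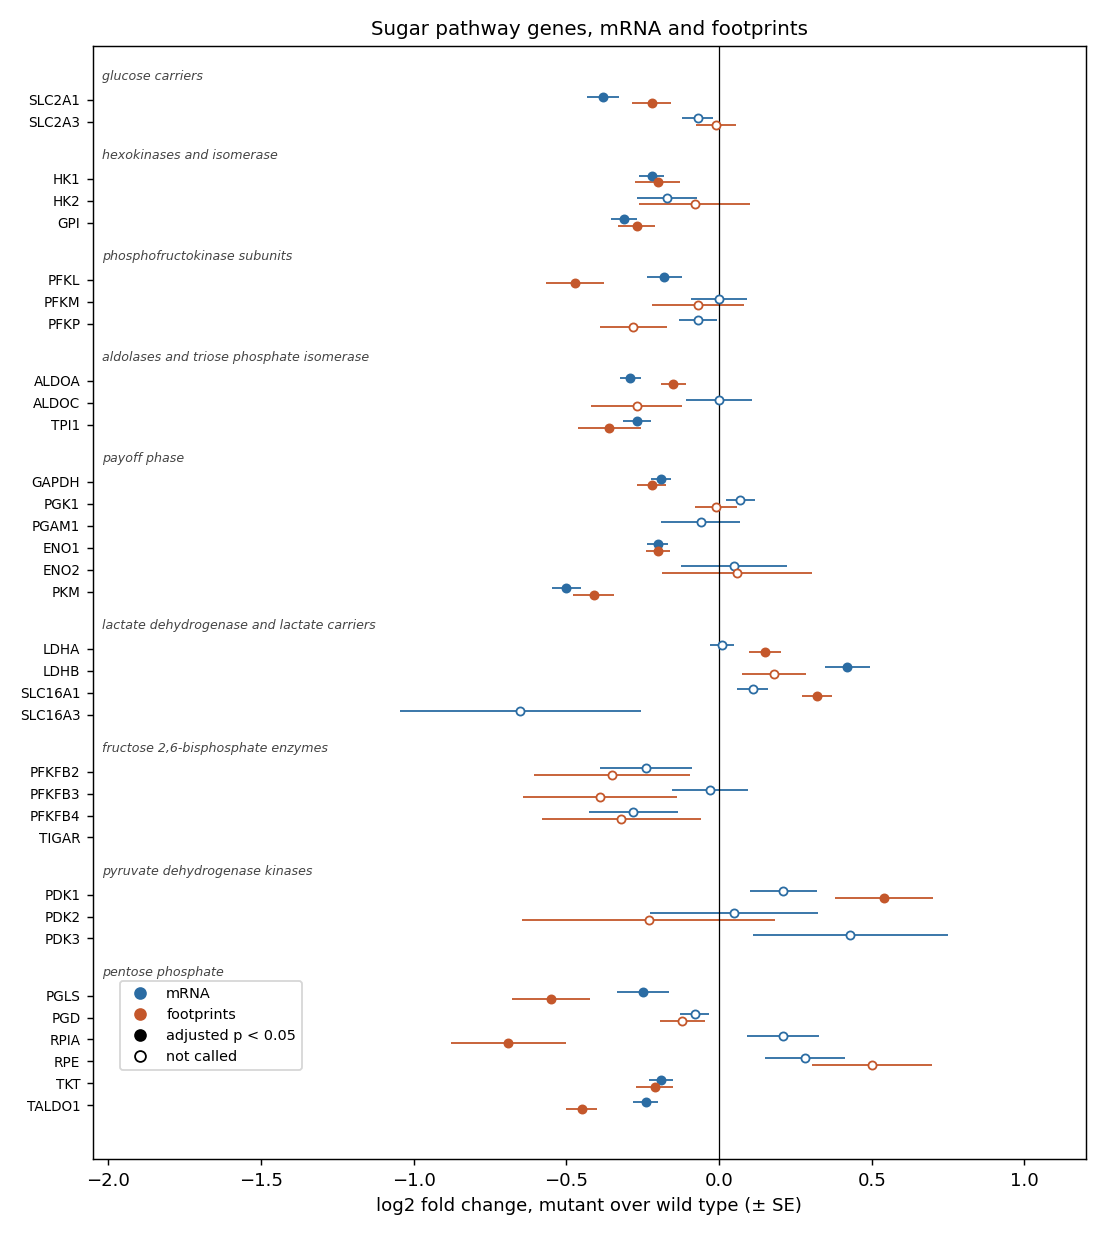
Log2 fold change (mutant over wild type, ± SE) of each gene in mRNA and in footprints, by pathway step from top to bottom. Filled points passed edgeR's test. The filled points of glucose carriers, hexokinase, phosphofructokinase, aldolase and the later enzymes lie left of 0, and those of lactate dehydrogenase, SLC16A1 and PDK1 lie right of 0.

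Of the glucose carriers SLC2A1 fell and SLC2A3 was not called. SLC2A1 (GLUT1, ENSG00000117394, GRCh38 chromosome 1, 42925353 to 42958868), the basal glucose carrier of red cells and many tumours, had 298 and 318 CPM in wild-type mRNA and 225 and 251 CPM in mutant mRNA. Its footprints were 603 and 643 CPM against 546 and 517 CPM, so that both mutant libraries lay below both wild-type libraries in each assay. The log2 fold change was -0.38 in mRNA (SE 0.053, edgeR adjusted p = 3.53e-11) and -0.22 in footprints (SE 0.0637, adjusted p = 0.0057). SLC2A3 (GLUT3), a carrier of high affinity, was not called, with -0.07 and -0.01. Its 95% intervals ran from -0.17 to 0.03 and from -0.13 to 0.12.

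The enzymes that trap glucose and pass it on fell. HK1, the hexokinase that phosphorylates glucose in most tissues, had 777 and 764 CPM in wild-type and 658 and 661 CPM in mutant mRNA. Its footprints were 433 and 409 CPM against 364 and 366 CPM. Mutant libraries were lower throughout (edgeR log2 fold change -0.22, adjusted p = 6.94e-07 in mRNA; -0.20, adjusted p = 0.0371 in footprints). GPI, the isomerase of the next step, had 644 and 616 CPM against 517 and 494 CPM in mRNA, and 716 and 728 CPM against 582 and 625 CPM in footprints. Its log2 fold changes were -0.31 (edgeR adjusted p = 1.36e-11) and -0.27 (adjusted p = 0.00039). The inducible hexokinase HK2 was not called (-0.17 and -0.08).

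Phosphofructokinase, the committed step of glycolysis, is a tetramer of liver (PFKL), muscle (PFKM) and platelet (PFKP) subunits. PFKL mRNA was 227 and 235 CPM in wild-type and 199 and 209 CPM in mutant libraries, and its footprints were 260 and 256 CPM against 184 and 187 CPM. PFKL thus had a larger difference in footprints (log2 fold change -0.47, SE 0.0949, edgeR adjusted p = 5.85e-05) than in mRNA (-0.18, SE 0.0573, adjusted p = 0.0053), but the difference between the assays was not called (-0.29, adjusted p = 0.129). PFKP had -0.07 in mRNA and -0.28 in footprints (edgeR adjusted p = 0.0538), and PFKM 0.00 and -0.07. Neither was called. PFKFB2, PFKFB3 and PFKFB4, which make and remove the sugar bisphosphate that activates phosphofructokinase, had values from -0.28 to -0.03 in mRNA and from -0.39 to -0.32 in footprints, with no call. TIGAR, a p53 target that removes the same activator, had at most 1 count in any of the 8 libraries, under the floor.

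Aldolase A and triose phosphate isomerase fell, aldolase C did not pass the test. ALDOA, which splits the sugar into triose phosphates, had 2186 and 2249 CPM in wild-type and 1780 and 1850 CPM in mutant mRNA. Its footprints were 2632 and 2624 CPM against 2369 and 2367 CPM. Both assays separated the genotypes, by -0.29 (SE 0.0347, edgeR adjusted p = 7.45e-15) and by -0.15 (SE 0.0406, adjusted p = 0.00358). TPI1, which interconverts the triose phosphates, had 473 CPM in each wild-type and 383 and 401 CPM in the mutant mRNA libraries. Its footprints were 210 and 215 CPM against 180 and 143 CPM (a change of -0.36, edgeR adjusted p = 0.00566, and of -0.27, adjusted p = 6.18e-08 in mRNA). ALDOC, the brain form of aldolase, had 0.00 in mRNA and -0.27 in footprints (edgeR adjusted p = 0.2).

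Among the enzymes that harvest ATP and NADH, 3 of 6 fell in mRNA (18.9% of all genes did) and 3 of 5 in footprints (10.9% of all genes). PKM, pyruvate kinase of most dividing cells (ENSG00000067225, GRCh38 chromosome 15, 72199029 to 72231591), had the largest called change in mRNA. It had 444 and 457 CPM in wild-type and 315 and 324 CPM in mutant mRNA, and 611 and 617 CPM against 435 and 506 CPM in footprints. The fall was -0.50 in mRNA (SE 0.0476, edgeR adjusted p = 8.53e-23) and -0.41 in footprints (SE 0.0665, adjusted p = 8.21e-07). Gene counts do not tell its splice forms apart.

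GAPDH, the dehydrogenase of the triose phosphate, had 3124 CPM in each wild-type and 2701 and 2786 CPM in the mutant mRNA libraries. Footprints of GAPDH were 1508 and 1446 CPM against 1276 and 1248 CPM (a change of -0.22, edgeR adjusted p = 0.00017, and of -0.19, adjusted p = 4.35e-07 in mRNA). GAPDH is often used as a reference gene, and here mutant libraries lay below wild type in both assays. ENO1, the main enolase, had 2203 and 2168 CPM against 1910 and 1904 CPM in mRNA, and 2967 and 2992 CPM against 2645 and 2510 CPM in footprints. Its log2 fold change was -0.20 in both assays (edgeR adjusted p = 2.71e-07 and 3.84e-05).

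PGK1, the first ATP-making enzyme, was not called, with 0.07 in mRNA and -0.01 in footprints, and neither was ENO2, the neuronal enolase, with 0.05 and 0.06. PGAM1, the mutase between them, had 34 to 36 CPM in wild-type and 31 to 36 CPM in mutant mRNA but 0, 1, 0 and 0 footprint counts in the 4 libraries. RefSeq names 13 pseudogenes of PGAM1 and 65 of GAPDH. In all, 17 of the 34 genes have at least 1 pseudogene named after them there, so counts of these genes are uncertain where reads match several places.

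Of the lactate dehydrogenases and lactate carriers 1 of 4 was called higher in mRNA and 2 of 3 in footprints. None was called higher in both, and none was called lower. Over all genes 18.9% were called higher in mRNA and 10.3% in footprints. LDHB, the dehydrogenase subunit that favours lactate to pyruvate (ENSG00000111716, GRCh38 chromosome 12, 21635342 to 21657842), had 99.3 and 99.5 CPM in wild-type and 143 and 122 CPM in mutant mRNA. It was the only one of the 34 genes called higher in mRNA (log2 fold change 0.42, SE 0.0737, edgeR adjusted p = 2.09e-07). Its footprints were 157 and 155 CPM against 178 and 176 CPM, a difference that was not called (0.18, adjusted p = 0.226). LDHA, the subunit that favours pyruvate to lactate, had 866 and 860 CPM in wild-type mRNA and 873 and 862 CPM in mutant mRNA, with overlapping groups (0.01). LDHA footprints were 1003 and 951 CPM against 1099 and 1064 CPM (0.15, SE 0.0515, edgeR adjusted p = 0.023), a call that was lost in DESeq2, without the low-count filter (adjusted p = 0.0857) and in 3 of 4 fits that left out 1 library.

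SLC16A1 (MCT1, ENSG00000155380, GRCh38 chromosome 1, 112911847 to 112956196), a lactate and pyruvate carrier, rose in footprints. Footprint levels were 1138 and 1052 CPM in wild-type and 1334 and 1400 CPM in mutant libraries (log2 fold change 0.32, SE 0.0492, edgeR adjusted p = 1.56e-07). Its mRNA was 302 and 317 CPM against 341 and 326 CPM, which was not called (0.11, adjusted p = 0.0821). The groups did not overlap in either assay. SLC16A3 (MCT4), the export carrier of strongly glycolytic cells, was scarce, with 10 to 20 mRNA counts and 1 to 13 footprint counts per library, and was not called in mRNA (-0.65, edgeR adjusted p = 0.184).

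PDK1, a kinase that switches off pyruvate dehydrogenase, had 51.4 and 56.9 CPM in wild-type and 76.4 and 83.7 CPM in mutant footprints. This rise of 0.54 (SE 0.161, edgeR adjusted p = 0.00883) was the largest rise among the 30 genes tested in footprints. The call was lost in DESeq2 (0.55, DESeq2 adjusted p = 0.184). It was also lost once a trend with local gene density was removed (0.41, edgeR adjusted p = 0.064). In mRNA PDK1 had 44.6 and 43.5 CPM against 56.5 and 44.6 CPM, not called at 0.21 (adjusted p = 0.121). PDK2 and PDK3 had under 10 CPM in every mRNA library and were not called.

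**Figure D2:**
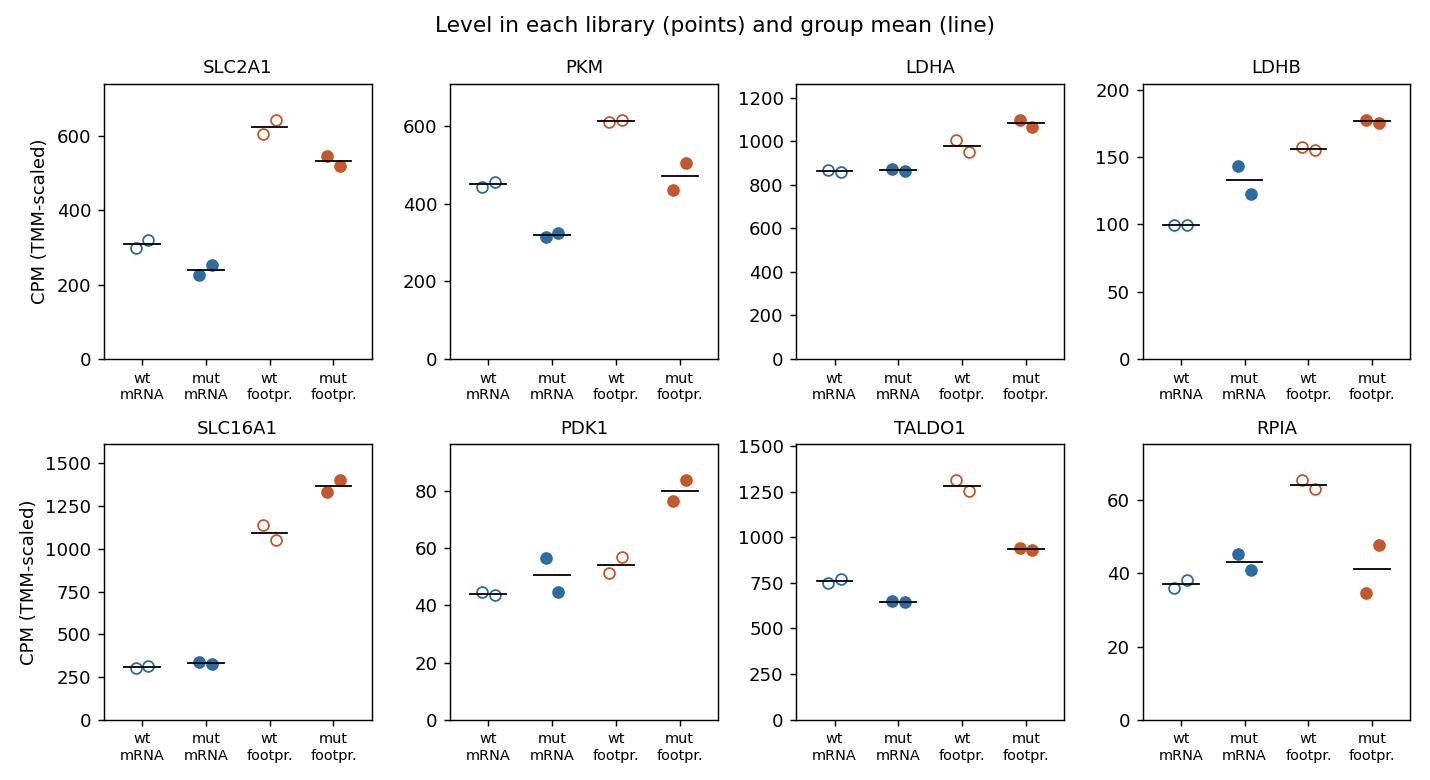
TMM-scaled CPM of 8 genes in each of the 8 libraries, with open points for wild type, filled points for mutant and a line at the group mean. SLC2A1, PKM and TALDO1 lie lower in the mutant in both assays, SLC16A1, LDHA and PDK1 lie higher in mutant footprints, and RPIA is lower in mutant footprints but not in mutant mRNA.

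In the pentose phosphate pathway 3 of 6 genes fell in mRNA and 4 of 6 in footprints, beside 18.9% and 10.9% of all genes, or 25.4% and 22% of genes reaching a mean count of 100. TALDO1, transaldolase of the sugar-exchanging branch (ENSG00000177156, GRCh38 chromosome 11, 747464 to 765012), had 747 and 774 CPM in wild-type and 648 and 642 CPM in mutant mRNA. Its footprints were 1312 and 1253 CPM against 940 and 932 CPM, the lowest adjusted p of the 34 genes in that assay (log2 fold change -0.45, SE 0.0512, edgeR adjusted p = 3.05e-12; mRNA -0.24, adjusted p = 1.12e-07). TKT, transketolase of the same branch, had 724 and 748 CPM against 629 and 667 CPM in mRNA and 681 and 703 CPM against 592 and 604 CPM in footprints. TKT changed by -0.19 and -0.21 (edgeR adjusted p = 5.3e-05 and 0.00569).

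PGLS, the lactonase of the NADPH-making branch, had 87.2 and 91.5 CPM in wild-type and 67.3 and 84.9 CPM in mutant mRNA, and 129 and 162 CPM against 102 and 98.5 CPM in footprints. Its log2 fold change was -0.25 in mRNA (edgeR adjusted p = 0.014) and -0.55 in footprints (adjusted p = 0.000579). PGD, the dehydrogenase that follows it, was not called (-0.08 and -0.12). RPE, the epimerase of ribulose phosphate, was not called either, with 0.28 in mRNA and 0.50 in footprints (edgeR adjusted p = 0.0831 and 0.0575).

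RPIA, the isomerase that yields ribose phosphate (ENSG00000153574, GRCh38 chromosome 2, 88691673 to 88750929), was the gene whose layers parted most. RPIA mRNA was 36.1 and 38.3 CPM in wild-type and 45.2 and 40.8 CPM in mutant libraries (log2 fold change 0.21, edgeR adjusted p = 0.16). RPIA footprints were 65.4 and 63.1 CPM against 34.5 and 47.6 CPM, from raw counts of 103, 122, 33 and 29. The mutant groups lay above wild type in mRNA and below it in footprints. The footprint fall was -0.69 (SE 0.189, edgeR adjusted p = 0.004), the largest of the 30 genes with all libraries in. Without mutant footprint replicate 1 it was -0.43 (adjusted p = 0.353), smaller than for PGLS (-0.58) and TPI1 (-0.57) in that fit.

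Footprints per mRNA, the ratio of the 2 assays, describe how densely a transcript is occupied relative to others. In the interaction test over 8 libraries RPIA fell by 0.90 on the log2 scale (SE 0.224, edgeR adjusted p = 0.00798) and TALDO1 by 0.21 (SE 0.0646, adjusted p = 0.0406). The other 28 of 30 genes were not called and none was called higher, where 4.15% of 9166 genes were called, 1.78% higher and 2.37% lower. SLC16A1 came nearest among rises (0.21, adjusted p = 0.0653). Among genes reaching a mean count of 100, 8.7% were called (3.23% higher and 5.48% lower), against 1 of 21 pathway genes. The median over the 30 genes was -0.04, beside 0 over all genes tested.

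The call of RPIA was lost without mutant footprint replicate 1, where its value was -0.64 (adjusted p = 0.346), and DESeq2 gave it no adjusted p. TALDO1's call was lost in 6 of 8 fits that left out 1 library (adjusted p up to 0.213; wild-type or mutant mRNA replicate 1, wild-type mRNA replicate 2, wild-type footprint replicate 1 and either mutant footprint replicate) and with DESeq2 (adjusted p = 0.148).

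As a level in wild-type cells, footprints per mRNA differed widely along the pathway, as a description with no test. SLC16A1 had 3.77 and 3.32 times as many footprint CPM as mRNA CPM in replicates 1 and 2, at percentile 99.2 of 9166 genes, and SLC2A1 had 2.02 in each (percentile 91.3). These carriers had the highest mean ratios of the 30 genes, while the carrier SLC2A3 (1.62 and 1.55, percentile 80) lay below ALDOC, RPIA, TALDO1 and PGLS. TPI1, with 0.444 and 0.453 (percentile 8.98), GAPDH, with 0.483 and 0.463 (percentile 10.6), and HK1, with 0.558 and 0.535 (percentile 15.4), were lowest. RefSeq names 65 pseudogenes of GAPDH, 4 of TPI1 and 0 of HK1. How reads that match several places entered these ratios was not tested, so a low ratio need not mean low ribosome occupancy. In all 22 of the 30 genes lay above the median of all genes, with a median ratio of 1.21 beside 1.03.

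**Figure D3:**
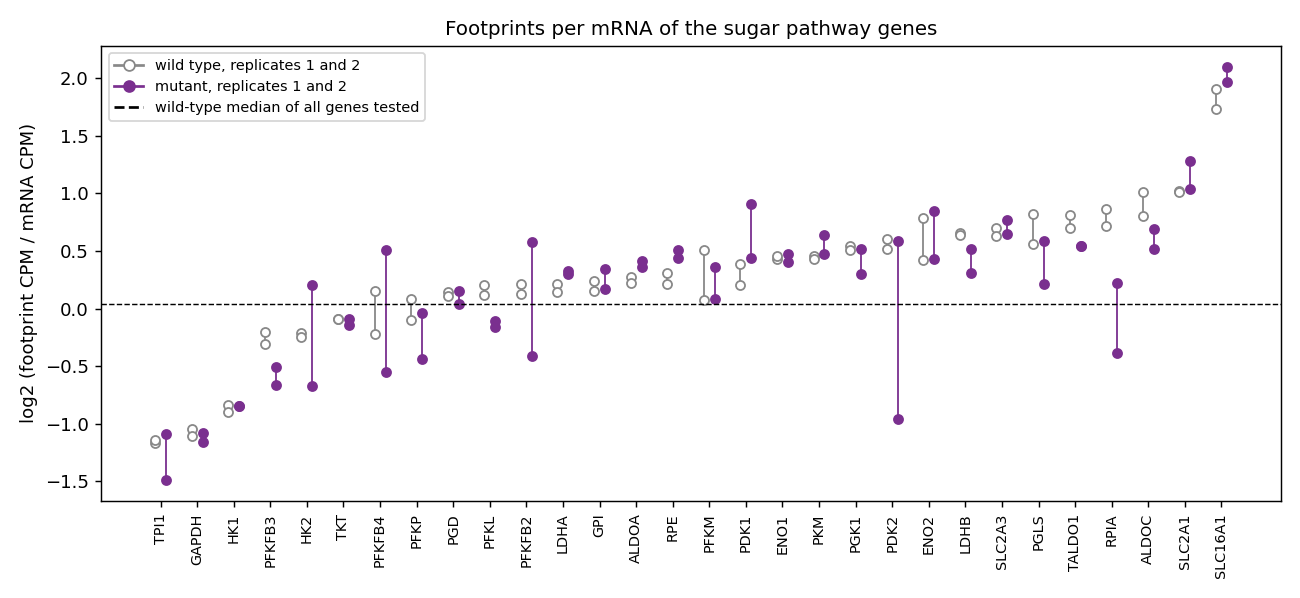
Log2 ratio of footprint to mRNA CPM for 30 genes, ordered by wild-type level, with open points for wild-type and filled points for mutant replicates 1 and 2. The dashed line is the wild-type median of all genes tested. SLC16A1 and SLC2A1 are at the upper end, TPI1, GAPDH and HK1 at the lower end, and both mutant points of RPIA lie below its wild-type points.

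Other genes of sugar metabolism were read from lists outside the 34. In the list of further sugar pathway genes 2 of 21 measured in mRNA rose, 4 fell and 15 were not called, and in footprints 1 of 18 rose, 4 fell and 13 were not called. The shares called, 28.6% and 27.8%, stood beside 37.7% and 21.2% over all genes, so the list as a whole was below or near the background. PKLR, the pyruvate kinase of red cells and liver, fell by 0.55 on the log2 scale in mRNA (edgeR adjusted p = 2.62e-14) and by 0.54 in footprints (adjusted p = 9.39e-06), close to PKM. BSG, the chaperone of the SLC16A carriers, fell in mRNA (-0.30, adjusted p = 1.1e-11) and in footprints (-0.19, adjusted p = 0.00142). PGP, a phosphatase that removes glycolytic side products, had -0.44 and -0.60 (adjusted p = 9.11e-08 and 0.000166). ADPGK, an ADP-dependent glucokinase, fell in footprints (-0.48, adjusted p = 0.0104) and in footprints per mRNA (-0.65, adjusted p = 0.0271). PGM3, a phosphoglucomutase of amino sugar synthesis, rose in mRNA (0.35, edgeR adjusted p = 0.00126), and MPC1 of the mitochondrial pyruvate carrier rose in footprints (0.31, edgeR adjusted p = 0.0232).

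Of hypoxia regulators and targets 4 of 21 rose, 6 fell and 11 were not called in mRNA, and 3 of 20 rose with none lower in footprints. The shares called were 47.6% and 15%, beside 37.7% and 21.2% over all genes. HIF1A itself was not called (0.18 and -0.09). The collagen hydroxylase subunit P4HA1 rose in mRNA (0.51, edgeR adjusted p = 4.36e-06) and in footprints (0.57, adjusted p = 0.000299). The oxidoreductase ERO1A rose as well (0.33 and 0.41, adjusted p = 0.000363 and 0.0171), and the histone demethylase KDM3A rose in mRNA (0.40, adjusted p = 0.000396). P4HA2, the sister subunit of P4HA1, was the 1 gene of 20 called in footprints per mRNA (0.60, edgeR adjusted p = 0.0277). Over all genes 4.15% were called in that comparison. P4HA2 mRNA was called lower (-0.31, edgeR adjusted p = 0.0186), and its footprints were not called (0.30, adjusted p = 0.104). The oxygen sensors EGLN1, EGLN2 and EGLN3 fell in mRNA, by 0.54, 0.33 and 0.51 on the log2 scale, and none of them was called in footprints. VHL (-0.23, edgeR adjusted p = 0.0172) and BHLHE40 (-0.16, adjusted p = 0.0305) fell in mRNA too. The remaining calls were rises of FAM162A in mRNA (0.29, edgeR adjusted p = 0.012) and of ARNT in footprints (0.34, adjusted p = 0.0436). Of 5 carbohydrate response genes, TXNIP, which restrains glucose uptake, rose (0.16 and 0.19, edgeR adjusted p = 0.00118 and 0.0312). The glucose-sensing factor MLXIP fell (-0.31 and -0.40, adjusted p = 1.29e-07 and 0.0159).

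Promoters were read because part of the pathway moved together and several of its genes are textbook HIF-1 targets. The windows were the 250 bases before the starts listed in a RefSeq promoter table (GRCh38.p14), and 31 of the 34 genes were matched, with 59 starts. SLC2A3, SLC16A1 and PFKFB2 were not matched. Not every annotated start was read. All listed windows of GAPDH, PKM, GPI, PGAM1, PFKP, SLC16A3 and PFKFB4 lie inside the gene's span, downstream of its first base. Searched on both strands were ACGTG and GCGTG, the core letters of the hypoxia response element, and the E-box CACGTG, which contains ACGTG. Shown are 2 genes that fell in both assays (GAPDH and PKM) and the 2 lactate dehydrogenase genes, each 5′ to 3′ on the gene's strand and ending at the base before the start. Capitals mark matches to ACGTG or GCGTG on either strand. The windows are chr12:6535014-6535263 (plus strand), chr15:72231191-72231440 (minus), chr11:18394313-18394562 (plus) and chr12:21657843-21658092 (minus).
GAPDH: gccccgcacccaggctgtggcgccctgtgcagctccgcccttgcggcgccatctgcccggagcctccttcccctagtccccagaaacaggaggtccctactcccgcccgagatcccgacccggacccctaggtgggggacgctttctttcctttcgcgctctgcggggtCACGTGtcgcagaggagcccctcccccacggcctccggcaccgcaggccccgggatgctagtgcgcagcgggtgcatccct
PKM: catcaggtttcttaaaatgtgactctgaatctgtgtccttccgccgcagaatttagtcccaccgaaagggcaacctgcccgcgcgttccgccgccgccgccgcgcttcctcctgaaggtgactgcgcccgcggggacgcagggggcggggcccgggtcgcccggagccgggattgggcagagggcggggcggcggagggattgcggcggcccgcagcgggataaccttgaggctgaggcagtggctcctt
LDHA: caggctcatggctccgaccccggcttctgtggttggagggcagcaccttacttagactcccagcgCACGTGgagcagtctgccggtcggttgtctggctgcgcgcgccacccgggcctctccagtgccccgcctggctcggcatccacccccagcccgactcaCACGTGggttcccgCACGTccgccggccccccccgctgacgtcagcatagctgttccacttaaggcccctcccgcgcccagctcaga
LDHB: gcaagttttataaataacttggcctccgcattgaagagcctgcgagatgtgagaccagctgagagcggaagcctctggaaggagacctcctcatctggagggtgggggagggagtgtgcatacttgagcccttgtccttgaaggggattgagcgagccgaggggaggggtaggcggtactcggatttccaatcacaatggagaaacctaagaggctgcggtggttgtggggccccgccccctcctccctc

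LDHA held the E-box at 2 places and a further ACGTG match, GAPDH held 1 E-box, and the PKM and LDHB windows held no match. Over all 31 genes 18 had ACGTG in at least 1 window (58.1%), beside 21.7% of 27305 genes in the table, and by start 35.6% of 59 beside 18.5% of 35116. For ACGTG or GCGTG the shares by gene were 74.2% and 47.4%, and for CACGTG 22.6% and 7.73%. Genes with more annotated starts have more windows to match. The 27305 genes were not limited to those tested here, and no share among expressed genes was taken. Split by outcome, ACGTG stood in 4 of the 12 genes lower in mRNA and in 13 of 17 that were not called. It was absent from LDHB, the 1 gene called higher in mRNA. In footprints it stood in 4 of 13 that fell, in 9 of 12 not called and in both genes that rose and were matched (LDHA and PDK1). The promoter of SLC16A1, which also rose in footprints, could not be read. Counted by start the contrast was smaller. ACGTG stood in 28.6% of 21 starts of genes lower in mRNA and in 38.9% of 36 starts of genes not called. In footprints the shares were 27.3% of 22 starts for genes that fell, 40% of 25 for genes not called and 50% of 4 for genes that rose. For ACGTG or GCGTG together the contrast by gene was also smaller, with 7 of 12 genes lower in mRNA and 15 of 17 not called. In footprints such a match stood in 8 of 13 genes that fell, 10 of 12 not called and 2 of 2 that rose. A match is a run of letters only and says nothing of binding in these cells.

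Position along the genome moved with the results, and its part in them was not tested. The pathway genes had a median of 31 protein-coding genes within 1 Mb, against 22 over the genes tested in mRNA. GAPDH (6534517 to 6538371), TPI1 (6867420 to 6870948) and ENO2 (6914580 to 6923697) lie close together on chromosome 12 (GRCh38). The 12 genes that fell in mRNA had a median of 37.5 such neighbours, from 16 (PKM) to 70 (ALDOA). With a smooth density trend taken off every gene, the calls of PFKL, ALDOA, TPI1, GAPDH, PGLS and TALDO1 in mRNA and of HK1, ALDOA, TPI1, GAPDH, PDK1 and TKT in footprints were lost. In that setting 8 genes were called in mRNA (7 lower) and 11 in footprints (9 lower), where 26.1% and 17.4% of all genes were called.

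The removal made some differences larger. PKM (16 neighbours) had -0.60 in mRNA and -0.48 in footprints after removal of the trend, ENO1 (17 neighbours) -0.29 and -0.26, and RPIA (9 neighbours) -0.83 in footprints. PFKP, with 5 neighbours, was then called lower in both assays (-0.26 and -0.45). ALDOA went from -0.29 to -0.08 in mRNA and from -0.15 to 0 in footprints, and GAPDH from -0.19 to -0.04 in mRNA. The rises of LDHB in mRNA (0.33) and of SLC16A1 and LDHA in footprints (0.26 and 0.20) kept their calls, and SLC16A1 was called higher in footprints per mRNA (0.23, edgeR adjusted p = 0.0354, where 3.9% of all genes were called). The pathway's median became -0.05 in mRNA and -0.17 in footprints.

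**Figure D4:**
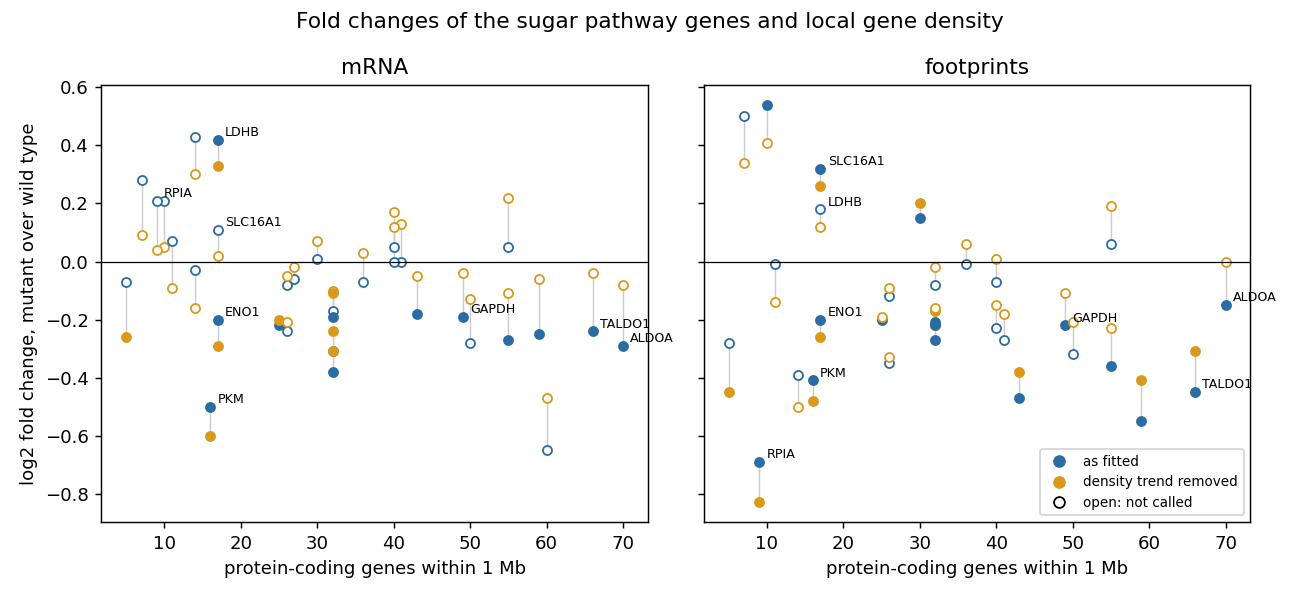
Log2 fold change (mutant over wild type) against the number of protein-coding genes within 1 Mb, as fitted and with the trend with density removed, for 33 genes in mRNA and 30 in footprints. Filled points passed edgeR's test. Genes in dense regions such as ALDOA, TALDO1 and GAPDH move towards 0, and PKM, ENO1 and RPIA in footprints move away from it.

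How far these small differences stand above biological spread cannot be read from 2 nearly identical libraries a group. With an assumed coefficient of variation of 10%, PKM was the 1 gene still called in mRNA (edgeR likelihood ratio test, adjusted p = 0.0403, where 2.91% of all genes were called) and none was called in footprints (3.14% of all genes) or in footprints per mRNA (0.142%). In that setting TALDO1 footprints came nearest (adjusted p = 0.0681). DESeq2 called 11 pathway genes in mRNA (13.6% of all genes), 6 in footprints (4.18%) and 0 in footprints per mRNA (1.36%). Footprint calls also leaned on the mutant libraries. Without mutant footprint replicate 1, 4 of the 16 calls remained (TPI1, ENO1, SLC16A1 and TALDO1), and without replicate 2, 8 remained (GPI, PFKL, GAPDH, ENO1, PKM, SLC16A1, RPIA and TALDO1). Without wild-type footprint replicate 2 the calls of SLC2A1, LDHA and PGLS were lost (13 remained), and without replicate 1 that of HK1. In mRNA PFKL and PGLS lost their calls without mutant replicate 1 or wild-type replicate 2, and TKT without the latter, with PGLS between -0.41 and -0.08 over the 4 fits. ENO1, SLC16A1 and TALDO1 kept their footprint calls whichever library was left out, in DESeq2 and after removal of the density trend, and SLC2A1, HK1, GPI, ENO1, PKM and LDHB kept their mRNA calls in the same settings.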

How the data were processed

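RNA-seq and ribosome profiling libraries (8, in 4 groups of 2) were grouped by the sample labels. The deposited values are whole-number counts per Ensembl gene, not normalized. Tools listed in the submitters' processing notes are featureCounts, STAR, Bowtie2, Trimmomatic and cutadapt, with GRCh38 and hg38 as builds. Not given in the sources used here are how reads with several matches were treated, which feature was counted, the strand setting and the annotation release. Of 20453 IDs 20407 matched a symbol. Positions and promoters are RefSeq's for GRCh38.p14. No table of protein or transcript lengths was used, so CPM levels of different genes were not compared; footprints per mRNA were ranked across genes with no correction for length.

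Tests used edgeR 4.0.16 under R 4.3.3 (glmQLFit with legacy = FALSE, glmQLFTest, TMM within each assay, filterByExpr by genotype), mRNA and footprints separately and footprints per mRNA as the interaction of genotype and assay. P-values were adjusted over all genes tested and called under 0.05. SE is the log2 fold change over the root of the F statistic, and 95% intervals are 1.96 SE either side. CPM divides by TMM-scaled totals of the genes kept. Local density counts protein-coding genes within 1 Mb, and its lowess trend (span 0.3) was removed as an offset. Alternatives were DESeq2 1.42.0, RLE factors, no filter, a coefficient of variation of 10%, a replicate block, density removal and leaving out each library. The procedure was tested on simulated counts.

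Members, gene lists and alternatives were chosen with earlier results of these data known. Described with every library's value were genes called in any comparison, up to 3 per role by adjusted p, and any whose assays had opposite signs with a call. From other lists up to 4 called genes by p were named. HIF1A, EGLN1, EGLN3, P4HA2, VHL, BHLHE40, FAM162A, ARNT, MPC1, ADPGK and PGM3 were added after their values were seen. In other marker lists 1 of 6 T and NK cell genes reached 10 CPM, and none of 5 B cell or 5 fibroblast and endothelial genes did.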

Additional observations from a re-analysis of the deposited data

Results flagged for a closer look

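For 2 genes the mutant's effect differed between the assays by the interaction test itself. RPIA differed by -0.9 on the log2 scale (footprints against mRNA, edgeR adjusted p = 0.00798), with mRNA of 36.1 and 38.3 CPM in wild-type and 45.2 and 40.8 CPM in mutant libraries and footprints of 65.4 and 63.1 against 34.5 and 47.6 CPM. Both mutant ratios of footprints to mRNA (0.764 and 1.17) lay below both wild-type ratios (1.81 and 1.65), on 33 and 29 mutant footprint counts. TALDO1 differed by -0.21 (edgeR adjusted p = 0.0406), with ratios of 1.76 and 1.62 in wild-type and 1.45 in each mutant replicate.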

How the results depend on the processing

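No called gene changed direction under any alternative. DESeq2 called 1458 genes in mRNA, 384 by footprints and 125 by footprints per mRNA, and of the pathway's genes 6 in footprints and 0 in footprints per mRNA. DESeq2 gave RPIA no adjusted p in footprints or in the ratio. With a coefficient of variation of 10% the calls were 313, 288 and 13 over all genes and 1, 0 and 0 in the pathway. Removing the density trend left 8 pathway calls in mRNA. Leaving out 1 library gave 2280 to 3838 calls in mRNA, 274 to 1799 for footprints and 139 to 450 for the ratio over all genes. For pathway genes these fits gave 10 to 16, 4 to 16 and 0 to 2 calls. A group then holds 1 library, assumed to vary like the others. Without the 10 largest genes in the denominator the pathway's mean shares were 1.56% and 1.4% in wild-type and mutant mRNA and 1.64% and 1.53% in footprints. RLE factors lost no pathway call, and testing without the low-count filter lost PGLS in mRNA and LDHA in footprints.

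Replicate numbers are shared between genotypes, but the labels do not say that a number marks a common culture or day, and same-numbered libraries deviated together only weakly (r = 0.10 in mRNA and 0.09 in footprints over 5231 genes). With the replicate block 14, 17 and 4 pathway genes were called for mRNA, footprints and their ratio (the last added ALDOA and SLC16A1).

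Depth limits the scarce genes. In the shallowest footprint library 3 counts stood for 4.92 CPM, so SLC16A3 footprints could not be compared, and intervals of PDK2 and the PFKFB genes were wide. TIGAR was under the floor in the deeper mRNA libraries too. PGAM1 stood apart, with 122 to 151 mRNA counts but at most 1 footprint count, and RefSeq names 13 pseudogenes of it. RPIA had 122 to 201 mRNA counts and 29 to 122 footprint counts, with no correction for length in either gene. What set the low footprints of PGAM1 was not tested.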
